A study of Mus musculus with 7 samples.

Results

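Phase II conjugation enzymes attach a polar group to drugs, steroids, bilirubin and reactive metabolites, so that the product dissolves and can be exported from the cell. The genes described here were chosen by name from expression tables of mouse liver: every row whose symbol begins with Ugt1, Ugt2 or Ugt3, with Sult, or with Gsta, Gstm, Gstp, Gstt, Gstz, Gstk or Gsto. The rule found 58 genes among 37468 rows, and no measured value was used to choose them. They were 9 UGT1, 9 UGT2 and 2 UGT3 genes, 16 sulfotransferases (SULT), and 4 alpha, 8 mu, 2 pi, 4 theta, 1 zeta, 1 kappa and 2 omega class glutathione S-transferases (GST). One of the mu genes, Gstm2-ps1, is a pseudogene.

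The 7 libraries were made from liver RNA of C57BL/6 mice in 4 groups. The WT group held 2 libraries of wild-type mice, and the SunTag group 2 libraries of SunTag-dCas9 knock-in mice. In dCas9 the cutting activity of Cas9 is disabled, so that it stays bound where its guide directs it, and SunTag is a repeated peptide that gathers several copies of an effector there. The Myod1_active group, in which the muscle gene Myod1 had been switched on in the liver of SunTag-dCas9 mice, held 1 library, and its Myod1_control group, also SunTag-dCas9 mice, held 2. The sources used here do not give the guide, vector, dose, time, sex or age, and nothing in the labels says whether the libraries of a group came from separate animals. The p-values below thus reflect the spread among these libraries alone, and that spread may be technical.

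UDP-glucuronosyltransferases (UGT) sit in the endoplasmic reticulum and transfer glucuronic acid from UDP-glucuronate. The UGT1 enzymes are made from one locus in which each gene has its own first exon and all share the later exons, while the UGT2 enzymes are separate genes in tandem. Cytosolic sulfotransferases transfer sulfate from PAPS to steroids, bile acids and phenols, and glutathione S-transferases join glutathione to electrophiles. Liver is a main site of these reactions, and in mice several of the genes are known to differ between females and males through the sex pattern of growth hormone.

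Expression was given as FPKM, a fragment count divided by transcript length and library size, so levels of different genes can be set side by side. Read counts and depth are unknown, and the precision of single values could not be derived from them. Myod1 was listed at 0 in the other 6 libraries and at 3.52 FPKM in Myod1_active. Hepatocyte markers were high everywhere, with Alb, serum albumin, between 28500 and 54092 FPKM. Their sum, mostly Alb, lay between 46374 and 50046 FPKM in the Myod1 libraries against 70046 to 83446 in WT and SunTag. Apoa1, Apob, Fgb and Serpina1a overlapped. The libraries of the 2 experiments differed in more than their labels. Xist, which is expressed from the inactive X chromosome of females, lay between 56.9 and 82.2 FPKM in the 4 WT and SunTag libraries and at 0.324, 0.0322 and 0.00420 in the 3 Myod1 libraries, and the Y-linked Eif2s3y lay between 0 and 0.531 against 30.3 to 37.3. Summed markers of other liver cells were also lower in the Myod1 libraries. Endothelial markers lay between 36.8 and 55.3 FPKM against 177 to 191. Kupffer cell markers lay between 39.3 and 43.1 against 181 to 290, and stellate cell markers between 32.6 and 47.9 against 246 to 332. Some single markers did not follow these sums. The stellate markers Col1a1, at 2.83 to 6.74 against 1.81 to 4.84, and Col3a1 overlapped. The endothelial marker Stab2 also overlapped, with 8.70 in Myod1_control replicate 2 and 7.47 in SunTag replicate 1. The Kupffer cell marker Cd68 was highest of all libraries in Myod1_active, at 14.0 FPKM. Erythroid markers summed to 38.4 to 45.8 FPKM against 2019 to 5425. The hemoglobin genes Hbb-b1, Hba-a1 and Hba-a2 each lay between 0 and 3.18 FPKM against 596 to 1927. Alas2, which made up most of the sum in the Myod1 libraries, went the other way, at 34.0 to 44.1 against 7.42 to 21.7. In whole tissue, fewer cells of a type and less RNA per cell cannot be told apart. Within the 4 WT and SunTag libraries, SunTag replicate 1 stood apart: across genes its log2 values correlated with the other 3 at 0.943 to 0.948, while those 3 correlated with each other at 0.955 to 0.958.

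Of the 58 genes, 42 reached an FPKM of 1 in every library in which they had a value, and 7 stayed below 1 in all libraries. The number at 1 or more was 49 in both WT libraries, 49 and 51 in SunTag, 42 and 41 in Myod1_control and 43 in Myod1_active. Levels spanned from 0 to 2957 FPKM. Gsta3, an alpha class transferase that also detoxifies aflatoxin epoxide in mice, was the most abundant on average, with 1348 and 1623 FPKM in WT, 1476 and 1782 in SunTag, 1124 and 1263 in Myod1_control and 1385 in Myod1_active. It made up between 93.1% and 96.8% of its class in each library. Gstm1, an abundant mu class transferase, lay between 528 and 1229 FPKM over the 7 libraries. Among the UGT genes Ugt2b36, Ugt2b5 and Ugt2b1, which glucuronidate steroids and drugs, were highest, with means over the 7 libraries of 263, 239 and 158 FPKM. Ugt1a1, the bilirubin-conjugating enzyme, followed at 146. Sult1a1, the phenol sulfotransferase, led its family at 264 FPKM. The 7 genes under an FPKM of 1 everywhere were Ugt1a8, Sult1c1, Sult2b1, Sult4a1, Sult6b1, Gstt4 and Gsto2, and Sult1c1 was listed at 0 in all 7 libraries.

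**Figure D1:**
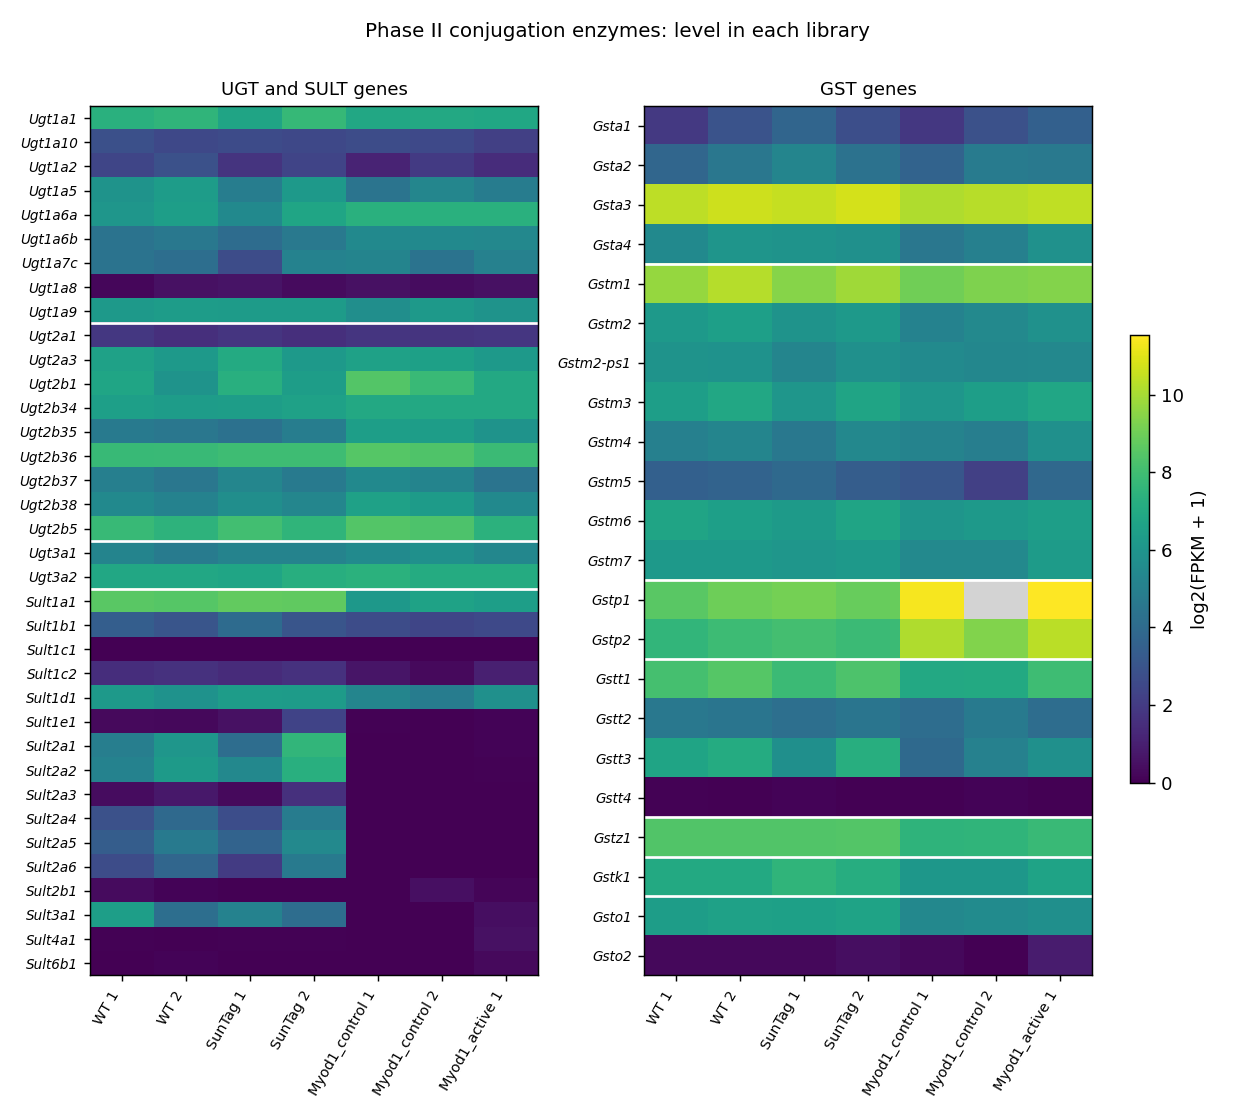
Level of each of the 58 genes (rows, by family) in each of the 7 libraries (columns), as log2(FPKM + 1) by colour. The grey field is the Gstp1 value whose estimate had failed, and the dark block in the Sult2a and Sult3a1 rows shows the 3 Myod1 libraries, where those genes stood at 0 to 0.346 FPKM.

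Near-identical copies limit how far some single values can be read, because a read that matches several genes may be divided among them. In windows of 50 bases, 15 of the 57 genes with a protein-coding transcript shared at least 50% of their windows with another gene, and 19 shared none. The share was 62.3% for Gstp1 and 72.6% for Gstp2, 89.7% for Gsta1, 64.2% for Gsta2, 62.1% for Sult2a2, and 58.2% to 100% over the UGT1 genes, whose shared later exons lie in all of them. It was 41.7% for Ugt2b5 and 37.4% for Ugt2b38. It was 0% for Ugt2b1, Sult1d1, Gsta3, Gsta4, Gstm5, Gstm7, Gstt1, Gstz1, Gstk1 and Gsto1, and 7.72% for Sult1a1. Values of the genes with a high share are uncertain one by one. Gstp1 had a failed estimate in Myod1_control replicate 2, listed at 0, which is treated as no value.

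**Figure D2:**
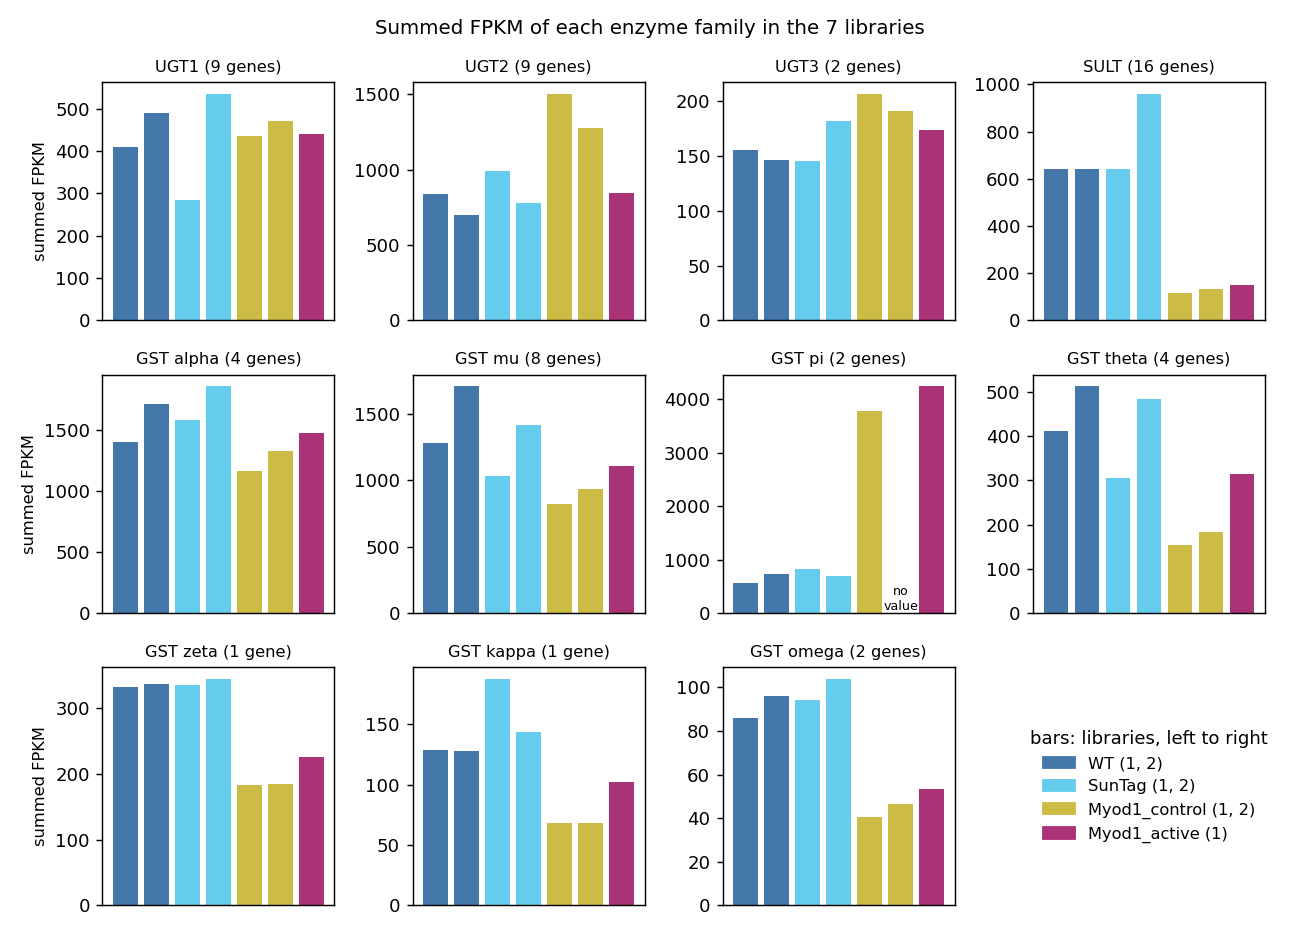
Summed FPKM of each enzyme family (1 panel each, axis from 0) in the 7 libraries, in the order WT 1 and 2, SunTag 1 and 2, Myod1_control 1 and 2, Myod1_active. SULT sums lay between 642 and 961 in WT and SunTag and between 114 and 149 in the Myod1 libraries, and GST pi sums were higher in the latter, with no value for Myod1_control replicate 2.

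The comparison of SunTag with WT asked how liver expression differed between knock-in and wild-type mice. No phase II gene passed limma's test on log2(FPKM + 1): 0 of 50 tested genes had an adjusted p under 0.05, against 0.127% of all 15744 genes tested. An unadjusted p under 0.05 was seen for 0 of 50 genes beside 307 of all 15744. The other 8 genes were not tested, 7 for being under an FPKM of 1 in every library and Gstp1 for its failed value. Relative to the median gene, whose own shift was 0.01, the 50 genes had a median log2 difference of 0.06, and 29 lay above 0. That sign rests on single libraries: the median was -0.15, with 19 of 48 above 0, without SunTag replicate 2, and -0.03, with 21 of 50, without WT replicate 1. A difference of 1.5-fold or more without overlap between the groups was seen for 1 gene upward, where the share over all genes was 1.42%, and 1 downward, where it was 1.23%. The upward gene was Sult1e1, the estrogen sulfotransferase, at 0.222 and 0.201 FPKM in the WT libraries against 0.441 and 3.98. SunTag replicate 2 was far above the other 3 libraries, and the log2 difference was 1.13 (SE 0.588, limma adjusted p = 1). Without SunTag replicate 1 it passed, at a limma adjusted p of 0.0406 with replicate 2 alone in its group. The downward gene was Ugt1a2, at 4.35 and 6.29 against 2.37 and 4.08 FPKM (log2 difference -0.61, SE 0.367, limma adjusted p = 1).

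The summed levels of all families but GST kappa, a single gene, overlapped between WT and SunTag. UGT1 genes summed to 409 and 490 FPKM in the WT libraries against 284 and 535, and GST mu genes to 1284 and 1709 against 1032 and 1419. Gstz1, the zeta class enzyme of tyrosine breakdown, was alike in both groups: 332 and 336 FPKM in the WT libraries against 335 and 344 (log2 difference 0.01, SE 0.119). Sult1a1 reached 387 and 362 FPKM in the WT libraries, against 430 and 413, so its groups did not overlap, with a log2 difference of 0.15 (SE 0.198). Gstk1, the mitochondrial and peroxisomal kappa class enzyme, was at 129 and 127 against 188 and 143 FPKM (0.34, SE 0.168). Neither Sult1a1 nor Gstk1 passed the test (limma adjusted p = 1 each). An exact permutation test of 2 libraries against 2 cannot go below a two-sided p of 0.33.

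The spread within groups was wide for some genes. Among the 49 genes at an FPKM of 1 or more in both libraries, the higher replicate exceeded the lower by a median of 1.45-fold in SunTag and 1.27-fold in WT, and in Myod1_control by 1.20-fold over 41 genes. It was 2-fold or more for 12 genes in SunTag, 7 in WT and 5 in Myod1_control. Sult2a1, the hydroxysteroid and bile acid sulfotransferase, had the widest ratio within SunTag, from 16.5 to 191 FPKM, and went from 29.1 to 65.7 within WT. All 6 Sult2a genes had their highest value in SunTag replicate 2 and the next highest in WT replicate 2. Sult2a2 had 34.0 and 76.7 FPKM in the WT libraries against 40.3 and 152, and Sult2a5 had 9.70 and 25.1 against 11.8 and 41.5. Sult3a1, another sulfotransferase known to be female-biased, was ordered otherwise, with 86.2 and 17.1 in WT and 34.1 and 16.4 in SunTag. Cux2, a transcription factor of female liver, had 8.93 and 1.90 FPKM in the WT libraries against 5.72 and 1.27, the same order of libraries as Sult3a1.

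**Figure D3:**
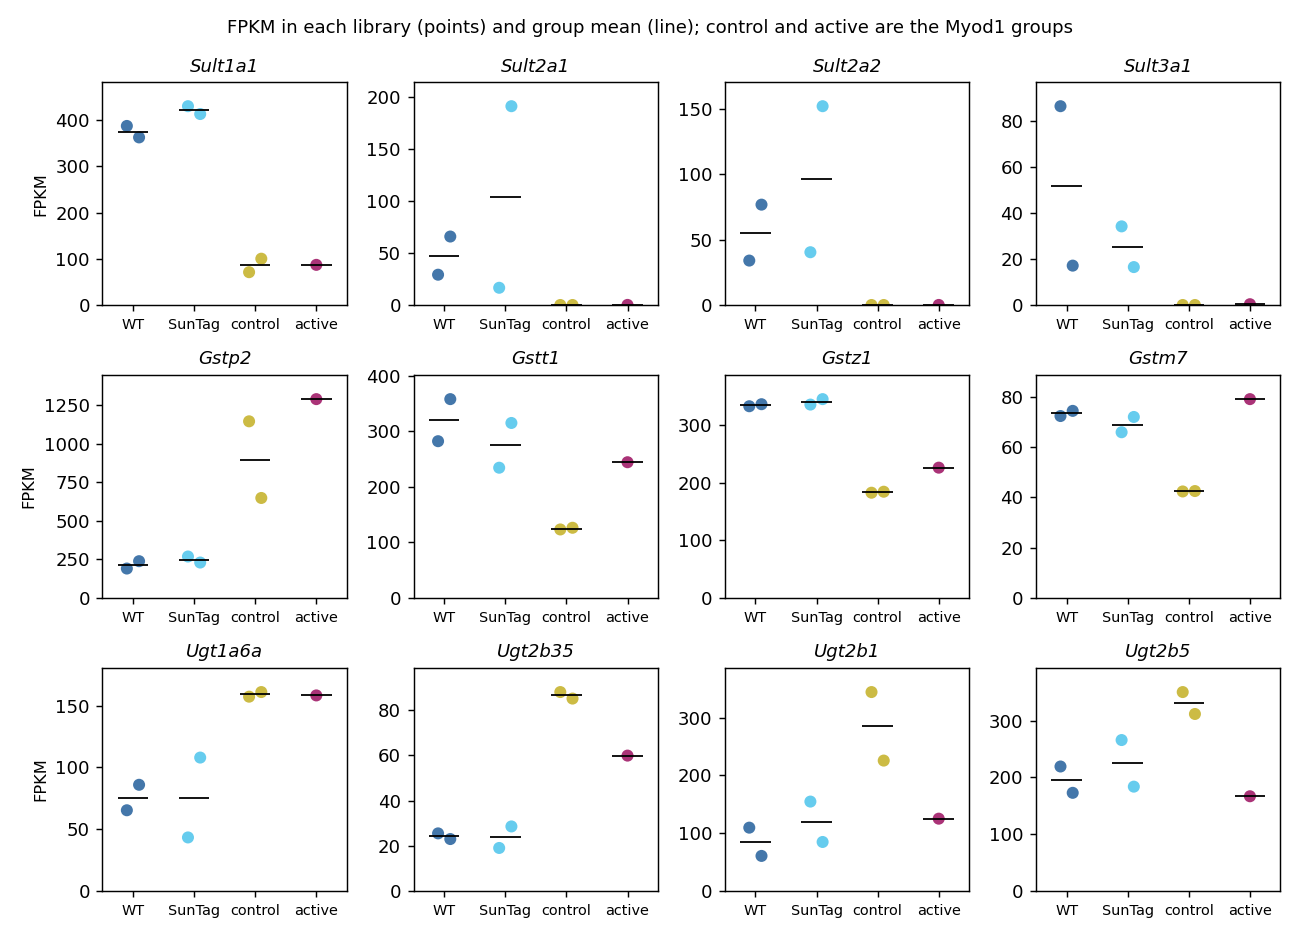
FPKM of 12 phase II genes (1 panel each, axis from 0) in the WT, SunTag, Myod1_control (control) and Myod1_active (active) groups. Points are libraries and lines are group means, and the Sult2a1 points in SunTag stand at 16.5 and 191. The single Myod1_active library lies outside the range of its 2 controls in every panel but Sult1a1 and Ugt1a6a. In the Sult2a1, Sult2a2 and Sult3a1 panels it does so by less than 1 FPKM.

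Setting Myod1_active against its controls addressed the effect of Myod1 activation on liver expression. Of 9 UGT2 genes 7 were lower, and of 19 GST genes 6 were higher, by 1.5-fold or more without overlap in the single Myod1_active library, and no phase II gene passed the test. By limma 0 of 50 genes had an adjusted p under 0.05, against 0.254% of all genes, with the lowest adjusted p at 0.145 for Gstm7. An unadjusted p under 0.05 was seen for 10 of 50 genes beside 3067 of all 15744, so that count lies near the background. In this comparison 6 of 50 genes were higher by 1.5-fold or more without overlap, 12% against 8.42% of all genes, and 8 of 50 were lower, 16% against 7.97%. Both shares are relative to the median gene, which stood 0.25 higher in Myod1_active. The activated arm had 1 library, so its spread is assumed to be that of the other groups, and an exact permutation test of 1 against 2 cannot go below a p of 0.67.

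All 8 lower genes were UGT genes, 6 of them of the Ugt2b cluster, and the other two were Ugt1a10 and Ugt2a3. In FPKM itself, before the shift of the median gene is taken off, Ugt2a3, Ugt2b35, Ugt2b36 and Ugt1a10 were lower by 1.28-fold to 1.47-fold. Ugt2b1, a male-biased steroid-conjugating enzyme, was at 345 and 226 FPKM in the controls and 125 in Myod1_active, which gave a log2 difference of -1.40 (SE 0.545, limma adjusted p = 0.310). Ugt2b5 was at 351 and 312 against 167 FPKM (-1.24, SE 0.293, adjusted p = 0.203), and Ugt2b38 at 96.4 and 78.1 against 43.0 (-1.25, SE 0.282, adjusted p = 0.193). In each of these 3 genes the Myod1_active value lay within or below the range of the 4 WT and SunTag libraries. Ugt2b37 was at 43.6 and 35.6 against 20.7 FPKM, Ugt2b36 at 357 and 322 against 231, and Ugt2b35 at 88.1 and 85.2 against 59.9. Ugt2b34, the remaining gene of that cluster, was at 123 and 124 FPKM in the controls and 125 in Myod1_active. The 7 Ugt2b genes summed to 1403 and 1183 FPKM in the controls and 771 in Myod1_active. Over the 19 tested UGT genes the median difference was -0.40, and 1 lay above the median gene, Ugt1a7c at 36.2 and 19.7 against 33.0 FPKM.

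Ugt2b5, Ugt2b37 and Ugt2b38 lie in one tandem cluster on chromosome 5 (mm9, chr5:87318792-88020636), which holds all 9 UGT2 genes followed by Sult1b1, Sult1d1 and Sult1e1. Their promoters, from 250 bases before to 50 bases after the RefSeq start (GRCm38.p6, minus strand), are shown because much of their sequence is alike. All 3 genes were lower in Myod1_active, as were Ugt2b1, Ugt2b35 and Ugt2b36. The promoters shown lie at chr5:87140291-87140590, chr5:87254739-87255038 and chr5:87424154-87424453. Capitals mark the longest run present in all 3.
Ugt2b5: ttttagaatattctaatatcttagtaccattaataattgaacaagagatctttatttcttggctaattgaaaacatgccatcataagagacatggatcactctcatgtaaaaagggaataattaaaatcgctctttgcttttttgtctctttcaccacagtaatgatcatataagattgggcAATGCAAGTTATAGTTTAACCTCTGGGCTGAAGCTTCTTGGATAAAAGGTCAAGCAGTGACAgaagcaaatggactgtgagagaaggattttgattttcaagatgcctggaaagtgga
Ugt2b37: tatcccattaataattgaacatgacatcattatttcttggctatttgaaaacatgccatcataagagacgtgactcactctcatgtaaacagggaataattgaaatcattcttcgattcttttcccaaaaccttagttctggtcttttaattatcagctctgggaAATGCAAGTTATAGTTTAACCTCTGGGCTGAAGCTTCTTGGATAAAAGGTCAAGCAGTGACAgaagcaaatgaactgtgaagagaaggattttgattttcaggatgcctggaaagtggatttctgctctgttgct
Ugt2b38: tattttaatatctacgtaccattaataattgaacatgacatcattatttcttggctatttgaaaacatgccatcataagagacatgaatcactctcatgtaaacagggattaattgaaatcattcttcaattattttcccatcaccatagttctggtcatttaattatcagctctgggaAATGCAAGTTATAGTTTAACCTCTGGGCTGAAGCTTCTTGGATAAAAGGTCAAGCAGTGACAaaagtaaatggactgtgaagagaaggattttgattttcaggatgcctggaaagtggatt
The shared run is 62 bases long and ends 7, 24 and 10 bases before the start of Ugt2b5, Ugt2b37 and Ugt2b38. Of 32851 RefSeq promoters 3 hold it, 0.00913%, and these are the 3 genes themselves. Ugt2b1, Ugt2b35 and Ugt2b36, also lower in Myod1_active, do not hold it, and its part in the levels was not tested. Promoter identity was 87.3% between Ugt2b37 and Ugt2b38 and 84.2% between Ugt2b5 and Ugt2b38, against 50.3% to 53.2% between Ugt2b1 and the other 5 promoters compared.

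All 6 higher genes were GST genes. Gstm7, a mu class transferase that shares no window with another gene, was at 42.4 and 42.5 FPKM in the controls and 79.1 in Myod1_active, a log2 difference of 0.63 (SE 0.145, limma adjusted p = 0.145). Gstt1, the theta class enzyme that acts on small halogenated compounds, was at 123 and 126 against 244 FPKM (0.71, SE 0.257, adjusted p = 0.183), and Gstt3 at 14.5 and 32.3 against 54.1 (1.03, SE 0.740, adjusted p = 0.376). Gsta4, which conjugates the lipid peroxidation product 4-hydroxynonenal, was at 22.9 and 31.2 against 56.4 (0.80, SE 0.306, adjusted p = 0.198). For Gsta4 and Gstt1 the Myod1_active value lay within the range of the 4 WT and SunTag libraries, 43.1 to 63.5 and 235 to 358 FPKM, and for Gstm7 above it, 66 to 74.5. Gstm5 was at 7.42 and 3.53 against 14.0 FPKM, and Gsta1, which shares most of its sequence with other genes, at 2.62 and 6.15 against 10.8. Summed with Gsta2, the member closest to it, it came to 14.3 and 33.2 against 35.4 FPKM. Over the 19 tested GST genes the median difference was 0.32, and 15 lay above the median gene. Gsta3 and Gstm1, the abundant members, differed by -0.04 each (SE 0.230 and 0.334), and Gstp2 was at 1145 and 648 against 1289 FPKM (0.33, SE 0.385). Summed with Gstp1, it came to 3788 FPKM in the control library with both values and 4246 in Myod1_active.

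Few sulfotransferases were expressed in these libraries, and 0 of 12 tested passed 1.5-fold relative to the median gene in either direction. Sult1a1 was at 71.0 and 100.1 FPKM in the controls and 86.8 in Myod1_active, within their range. Sult1d1, which sulfates catecholamines and eicosanoids, was at 37.2 and 27.8 against 54.8 FPKM, a log2 difference of 0.50 (SE 0.237, limma adjusted p = 0.214). In FPKM itself, before the shift of the median gene is taken off, Sult1d1 was 1.68-fold the control mean, without overlap. The 6 Sult2a genes and Sult3a1 were at 0 in both controls and between 0 and 0.346 FPKM in Myod1_active. Of the 50 tested genes 41 had a mean FPKM of 1 or more in these 3 libraries, and a gene listed at 0 in all of them takes the value -0.25 only because the shift of the median gene is taken off. The median over the 41 expressed genes was -0.21, as was that over all 50. With quantile normalization the median over all 50 was 0, and 24 lay above it.

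Genes around the conjugation reactions gave no call in this comparison either (0 called in each list, limma adjusted p 0.114 or higher). Of 8 genes of UDP-glucuronate supply, 2 were higher and 1 lower by 1.5-fold or more without overlap, and Ugdh, which makes UDP-glucuronate, was at 134 and 159.5 FPKM in the controls against 104. Of 10 genes of PAPS supply 2 were higher and 0 lower, and Papss2, the PAPS synthase of liver, was at 30.6 and 30.7 against 66.1 (log2 difference 0.83, adjusted p = 0.171). Of 12 glutathione genes 1 was higher and 3 lower. Gclc, the catalytic subunit that sets the rate of glutathione synthesis, was at 114 and 144 against 56.7 FPKM (-1.41, adjusted p = 0.151). Of 7 genes of conjugate efflux, 6 pumps and the membrane linker Rdx, 0 were higher and 3 lower, among them Abcc3, which exports glucuronides to blood, at 147 and 187 against 79.7. Of 10 hydrolases, most of them carboxylesterases, 1 was higher and 4 were lower. Of 22 other detoxifying enzymes 5 were higher and 4 lower. Against 8.42% higher and 7.97% lower over all genes, counts such as 1 of 12 lie near the background, and 4 of 10 lies above it. Of 23 regulators 2 were higher and 5 lower, and Nr1i3, the receptor CAR that controls many phase II genes, was at 55.1 and 94.5 against 16.8 (-2.30, adjusted p = 0.219).

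Other markers moved beside the UGT2 genes in the Myod1_active library. The share of all genes lower by 1.5-fold or more without overlap was 7.97%. Of 13 male-biased liver genes outside phase II, 11 were lower by that rule, with sums of 16930 and 9879 FPKM in the controls and 7253 in Myod1_active. Of 10 pericentral hepatocyte genes 6 were lower, and of 8 endothelial markers 7, whose sum was 52.1 and 55.3 against 36.8. None of these genes passed limma's test, the lowest adjusted p being 0.0584 for Elovl3, and their part in the UGT2 values was not tested.

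**Figure D4:**
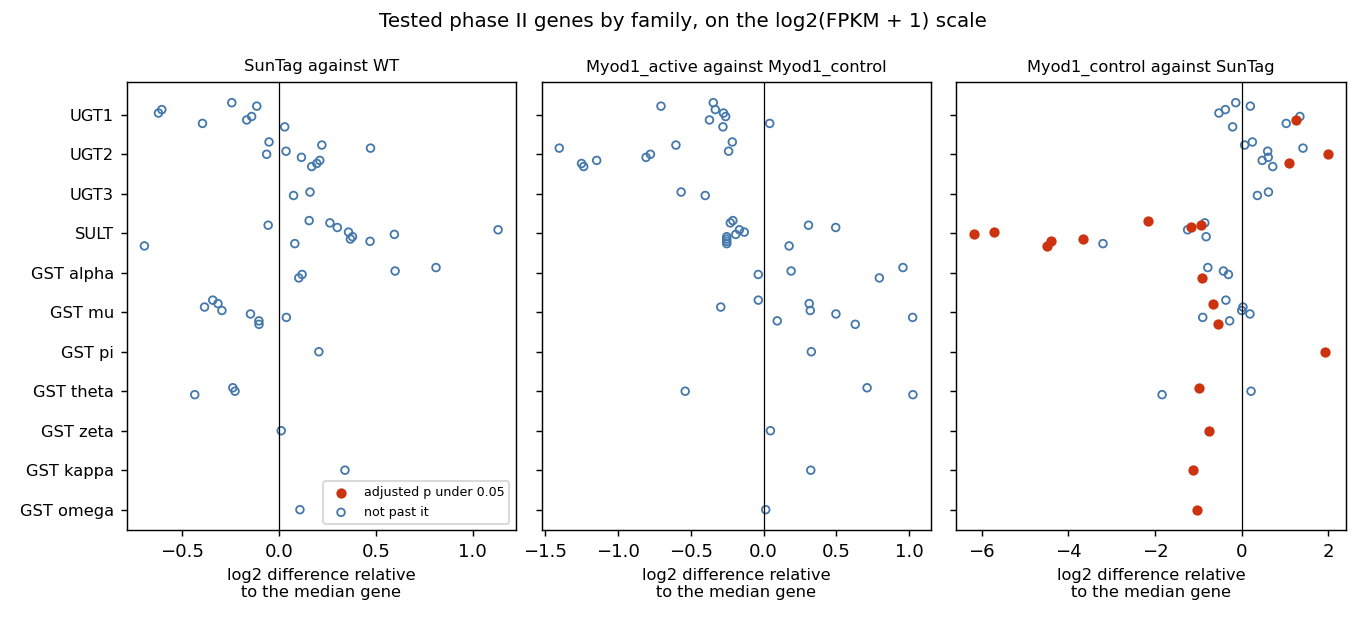
Log2(FPKM + 1) difference relative to the median gene (horizontal axis; each panel has its own scale) of the 50 tested genes by family (vertical axis), in the 3 comparisons. Filled points passed an adjusted p of 0.05 by limma: 0 in the first and second panel and 19 in the third, where all 12 SULT genes lie left of 0 and all 9 UGT2 genes right of it. Of the SULT genes 9 were under an FPKM of 1 in both Myod1_control libraries and entered the test through other groups.

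The third comparison, Myod1_control against SunTag, set liver of SunTag-dCas9 mice from the 2 experiments side by side, as the background of the Myod1 values. Of the tested genes Sult1a1, Sult1d1 and 7 of 19 GST genes fell in Myod1_control, and Gstp2, 2 of 9 UGT2 genes and Ugt1a6b rose. By limma 19 of 50 genes passed an adjusted p of 0.05, 38% against 24.3% of all genes. They were 4 higher, 8% against 7.3% of all genes, and 15 lower, 30% against 17%. Of the 15 lower genes 6, all sulfotransferases, were under an FPKM of 1 in both Myod1_control libraries and entered the test through other groups. No support is drawn from these 6. With median-ratio scaling the split was 6 higher and 13 lower, and with quantile normalization 8 and 10. Over all genes it went from 1149 higher and 2683 lower to 1735 and 1847, and to 1757 and 1764. A difference of 1.5-fold or more without overlap was seen upward in 10 of 50 genes, where the share over all genes was 15.4%, and downward in 20 of 50, where it was 20.1%. The median gene was shifted by -0.14, and differences are given relative to it. The groups also differed in the sex and cell type markers above, and experiment, sex and cell makeup cannot be told apart here.

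These calls rest on a spread shared by all groups. Without WT replicate 1, or without WT replicate 2, 0 genes passed, and without Myod1_control replicate 1 or 2 only 1 did. In a fit of the 4 libraries of the 2 groups alone 3 passed. The count was 13 without SunTag replicate 1 and 17 without SunTag replicate 2. Each of the 19 genes kept its direction in the 16 settings tried and passed in 6 to 14 of them, with a highest adjusted p between 0.0690 and 0.161.

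Of the 12 tested sulfotransferases 9 stood under an FPKM of 1 in both Myod1_control libraries and were tested because they reached 1 in other groups, so a count over the family says little. The other three were Sult1a1, Sult1b1 and Sult1d1, and the first and last of them fell. Sult1a1 fell from 430 and 413 FPKM in SunTag, with 387 and 362 in WT, to 71.0 and 100.1 in Myod1_control (log2 difference -2.17, SE 0.198, limma adjusted p = 0.0139). Sult1d1 fell from 82.9 and 78.6 FPKM to 37.2 and 27.8 (-1.16, SE 0.193, adjusted p = 0.0208). Sult1c2, one of the 9 low genes, was at 1.66 and 2.13 FPKM in SunTag against 0.561 and 0.214. Sult1b1, which sulfates thyroid hormone, was at 15.2 and 7.18 against 5.35 and 4.28 FPKM and did not pass (adjusted p = 0.110).

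The Sult2a genes and Sult3a1 were a separate case, because they were listed at 0 in both Myod1_control libraries and no fold can be given. In SunTag, Sult2a1 was at 16.5 and 191 FPKM, Sult2a2 at 40.3 and 152, Sult2a5 at 11.8 and 41.5, Sult2a4 at 5.67 and 28.1 and Sult3a1 at 34.1 and 16.4. These 5 were called by limma, but they entered the test only through libraries in which they were high. No support is drawn from their p-values. Sult2a6, at 2.97 and 24.8 FPKM, Sult2a3, at 0.243 and 2.04, and Sult1e1, at 0.441 and 3.98 against 0.0513 and 0, were not called. Summed over the 6 genes, the Sult2a level was 84.9 and 195 FPKM in the WT libraries, 77.6 and 439 in SunTag, 0 and 0 in Myod1_control and 0.131 in Myod1_active. Sult2a genes and Sult3a1 are known to be expressed mainly in female mouse liver.

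The 6 Sult2a genes lie together on chromosome 7 (mm9, chr7:14209341-14840216), and RefSeq promoters were matched for 4 of them, Sult2a3 to Sult2a6. They are shown because these genes were at 0 together in the Myod1_control libraries. On GRCm38.p6 they lie at chr7:14122999-14123298, chr7:13989539-13989838, chr7:13623717-13624016 and chr7:14254821-14255120, Sult2a5 on the plus strand and the others on the minus strand. Capitals mark the longest run present in all 4.
Sult2a3: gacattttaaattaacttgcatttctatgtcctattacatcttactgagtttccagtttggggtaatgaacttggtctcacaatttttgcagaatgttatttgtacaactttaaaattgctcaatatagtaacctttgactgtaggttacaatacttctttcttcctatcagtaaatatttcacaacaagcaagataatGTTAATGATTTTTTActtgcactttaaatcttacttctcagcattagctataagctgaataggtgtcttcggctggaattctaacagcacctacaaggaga
Sult2a4: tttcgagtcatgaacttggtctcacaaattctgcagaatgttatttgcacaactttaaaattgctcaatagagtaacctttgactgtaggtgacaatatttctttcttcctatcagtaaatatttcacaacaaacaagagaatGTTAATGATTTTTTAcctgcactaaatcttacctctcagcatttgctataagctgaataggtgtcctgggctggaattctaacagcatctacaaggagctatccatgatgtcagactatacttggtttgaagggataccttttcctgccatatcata
Sult2a5: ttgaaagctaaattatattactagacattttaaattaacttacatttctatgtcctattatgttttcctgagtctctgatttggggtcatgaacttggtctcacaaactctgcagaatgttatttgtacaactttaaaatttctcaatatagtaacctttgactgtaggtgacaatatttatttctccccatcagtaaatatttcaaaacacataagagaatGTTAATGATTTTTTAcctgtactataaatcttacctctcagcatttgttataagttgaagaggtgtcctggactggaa
Sult2a6: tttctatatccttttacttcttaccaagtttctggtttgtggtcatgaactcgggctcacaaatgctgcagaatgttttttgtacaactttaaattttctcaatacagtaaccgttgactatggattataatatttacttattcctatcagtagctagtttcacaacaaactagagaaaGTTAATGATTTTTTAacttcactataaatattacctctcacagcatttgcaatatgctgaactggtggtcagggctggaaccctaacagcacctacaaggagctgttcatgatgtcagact
The shared run has 15 bases and begins 51, 107, 28 and 71 bases before the start of Sult2a3, Sult2a4, Sult2a5 and Sult2a6. Of all 32851 promoters 4 hold it, 0.0122%, and these are the same 4 genes. Over the whole aligned promoters the identities were 53.5% to 75.9%.

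The GST classes moved apart from one another. GST pi, the class that binds glutathione to a wide range of electrophiles and is male-biased in mouse liver, was higher in Myod1_control. Gstp2 had 191 and 238 FPKM in the WT libraries, 269 and 229 in SunTag, and 1145 and 648 in Myod1_control (log2 difference 1.93, SE 0.314, limma adjusted p = 0.0252). The 648 is from the library in which the Gstp1 estimate failed. Gstp2 has 64.3% of its windows in Gstp1, so that value is uncertain. Gstp1 was at 376 and 500 in WT, 553 and 454 in SunTag, 2643 in the Myod1_control library with a value and 2957 in Myod1_active. With its failed value set as missing, an alternative chosen after the data were seen, Gstp1 had a difference of 2.53 (SE 0.280, adjusted p = 0.0208). The 2 genes summed to 567 and 739 FPKM in the WT libraries, 822 and 684 in SunTag, 3788 in Myod1_control replicate 1 and 4246 in Myod1_active, from 9.05% to 12.8% of all phase II FPKM in the first 4 libraries to 44.7% and 46.5%. Gstp1 held between 66.4% and 69.8% of the sum in each library with both values.

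Gstp1 and Gstp2 lie side by side on chromosome 19 (mm9, chr19:4035411-4042221). Their promoters (GRCm38.p6, chr19:4037863-4038162 and chr19:4042172-4042471, minus strand) are shown because the 2 genes share much of their transcript and were both higher in Myod1_control. Capitals mark the longest run present in both.
Gstp1: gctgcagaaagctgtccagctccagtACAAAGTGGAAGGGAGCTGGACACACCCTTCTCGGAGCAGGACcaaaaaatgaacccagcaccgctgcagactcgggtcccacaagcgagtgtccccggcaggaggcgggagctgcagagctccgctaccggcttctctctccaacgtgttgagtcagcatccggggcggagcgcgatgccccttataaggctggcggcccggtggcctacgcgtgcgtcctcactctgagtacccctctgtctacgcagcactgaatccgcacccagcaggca
Gstp2: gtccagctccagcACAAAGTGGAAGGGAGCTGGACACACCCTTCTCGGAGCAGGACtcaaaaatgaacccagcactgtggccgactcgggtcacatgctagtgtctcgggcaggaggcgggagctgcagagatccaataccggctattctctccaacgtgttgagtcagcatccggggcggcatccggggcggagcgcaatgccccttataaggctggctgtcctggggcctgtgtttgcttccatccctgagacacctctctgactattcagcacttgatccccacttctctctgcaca
The shared run is 43 bases long and begins 224 and 237 bases before the starts of Gstp1 and Gstp2, and no other of the 32851 promoters holds it (0.00609% with it). The promoters were 77.1% identical.

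In the other GST classes 7 genes fell in Myod1_control and none rose by limma's test. Gstt1 fell from 235 and 315 FPKM in SunTag to 123 and 126 (log2 difference -0.98, SE 0.210, limma adjusted p = 0.0274). Gstz1 fell from 335 and 344 to 182 and 184 (-0.75, SE 0.119, adjusted p = 0.0191), and Gstk1 from 188 and 143 to 68.1 and 67.9 (-1.12, SE 0.168, adjusted p = 0.0189). The Myod1_control replicates of both enzymes lay within 1.5-fold of each other. Gsto1, the omega class enzyme that reduces dehydroascorbate, fell from 94.0 and 104 to 40.3 and 46.5 FPKM (-1.03, SE 0.146, adjusted p = 0.0181). Gsta4, Gstm2 and Gstm7 also fell, by 0.92, 0.67 and 0.55 on the log2 scale relative to the median gene (adjusted p = 0.0421, 0.0444 and 0.0248). Gsta3 was at 1476 and 1782 against 1124 and 1263 FPKM and Gstm1 at 686 and 959 against 528 and 620, without overlap, and neither passed (adjusted p = 0.142 and 0.228). Gstt3 was at 52.8 and 147 against 14.5 and 32.3 FPKM (adjusted p = 0.0713), and Gstm3, at 66.5 and 105 against 66.4 and 86.9, overlapped.

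The 3 UGT genes that passed were all higher. All 9 UGT2 genes lay above the median gene, 6 by 1.5-fold or more without overlap, and 2 passed. Ugt2b35 rose from 19.0 and 28.6 FPKM to 88.1 and 85.2 (log2 difference 1.99, SE 0.215, limma adjusted p = 0.0171), and Ugt2b38 from 51.3 and 38.0 to 96.4 and 78.1 (1.10, SE 0.231, adjusted p = 0.0433). Ugt2b1 was at 155 and 84.7 against 345 and 226 FPKM (1.41, SE 0.445, adjusted p = 0.0956), which did not overlap and did not pass. The UGT1 locus (mm9, chr1:89951963-90116577) summed to 284 and 535 FPKM in SunTag and 436 and 470 in Myod1_control, which overlapped, while the shares of its genes differed. Ugt1a6a made up 34.3% to 36.1% of it in the 3 Myod1 libraries, against 15.2% to 20.2% in the other 4, and Ugt1a1 made up 26.0% to 27.4% against 36.8% to 39.3%. Both UGT3 genes, Ugt3a1 and Ugt3a2, did not pass: Ugt3a1 was at 35.2 and 35.0 against 44.4 and 54.9 FPKM (adjusted p = 0.136). Ugt1a6b rose from 15.6 and 24.3 FPKM to 43.9 and 43.7 (1.26, SE 0.230, adjusted p = 0.0318), and Ugt1a6a, at 43.3 and 108 against 157 and 161, did not pass (adjusted p = 0.109). Ugt1a6a and Ugt1a6b, both phenol-conjugating, have 100% and 80.7% of their windows in Ugt1a7c, so the values of these 3 genes are uncertain one by one.

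Genes that supply or export the conjugates, and a list of hydrolases, were counted in the same way, beside 7.3% higher and 17% lower over all genes. Of 8 genes of UDP-glucuronate supply 2 were higher and 3 lower, and Ugdh rose from 67.3 and 85.1 to 134 and 159.5 FPKM (limma adjusted p = 0.0276). Of 10 genes of PAPS supply 2 were lower, Papss2, from 50.1 and 75.5 to 30.6 and 30.7 (adjusted p = 0.0365), and Cdo1, the cysteine dioxygenase, from 983 and 1049 to 358 and 330 (adjusted p = 0.0156). Of 12 glutathione genes 2 were higher and 4 lower, and of 22 other detoxifying enzymes, conjugating enzymes together with quinone reductases and epoxide hydrolases, 3 were higher and 6 lower. Of 10 hydrolases, most of them carboxylesterases, which split esters, with sulfatases among the others, 5 were higher and 0 lower. Gusb, the glucuronidase, overlapped, at 13.2 and 13.1 FPKM in SunTag against 12.4 and 13.8. Of 7 genes of conjugate efflux 3 were higher and 0 lower, with Abcg2, which exports sulfate conjugates, rising from 16.9 and 15.5 to 75.9 and 69.5 FPKM (adjusted p = 0.00750). Of 23 regulators 5 were higher and 0 lower, among them Ppara at 19.5 and 17.4 against 50.9 and 63.5 FPKM (adjusted p = 0.0151).

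The sex-biased lists outside phase II moved in the same comparison, where 7.3% of all genes were called higher and 17% lower. Of 10 female-biased liver genes 7 were lower and 0 higher, with sums of 95.8 to 150 FPKM in the Myod1 libraries against 936 to 1478 in the other 4. Of 13 male-biased genes 8 were higher and 0 lower. Of the other cell types' markers, 7 of 8 endothelial, 5 of 7 Kupffer cell, 4 of 7 stellate cell and 4 of 4 lymphocyte genes were lower. Of 6 erythroid genes 3 were lower and 1 higher, and of 7 cholangiocyte genes 1 was lower and 1 higher. Their part in the phase II values was not tested.

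Short motifs were searched in the RefSeq promoters. The STAT element TTCNNNGAA, searched on both strands, was present in 8.30% of all 32851 promoters and in 4 of 60 promoters of the 50 genes with one: Gsta1, Gstm6, Sult3a1 and Ugt1a6a. The antioxidant response core TGACNNNGC was present in 12.4% of all promoters and in 3 of the 60, those of Gsta3, Gstm5 and Gstm7. A strict HNF1 palindrome, searched in the same way, was present in 0.00913% of all promoters and in 0 of 60. A match of letters is a description and not a binding site.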

How the data were processed

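RNA came from a Direct-zol column kit, per the labels' protocols. The submitters' processing notes list cutadapt 1.11, TopHat2 2.1.1 and Cufflinks 2.2.1 with build mm9. Settings, annotation, strand use: not given in the sources used here. Per the file headers, the authors deposited FPKM for each gene with a confidence range and a status. That range was not used as an error, since 11 to 17 of the 58 values per library fell outside it. Depth is unknown, and groups of 1 or 2 libraries limit precision.

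Left out were 343 rows whose status was not OK in some library, rows sharing a symbol were summed, and genes reaching an FPKM of 1 in at least 1 library were tested (15744). limma 3.58.1 (R 4.3.3) was fitted to log2(FPKM + 1) of all 7 libraries, with group means and empirical Bayes variance with a trend (3 residual and 1.93 prior degrees of freedom), and two-sided p-values adjusted over all genes tested by Benjamini and Hochberg's method. Log2 differences are relative to the median gene and understate changes of low genes, while SE and p belong to the difference before that shift. The code was tested on simulated data.

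Named genes were those past an adjusted p of 0.05, the 2 highest of each family, the 8 largest non-overlapping differences in each direction, genes known as sex-biased, the UGT1 locus, and up to 4 of each companion list. The genes and lists were chosen with earlier results of these data known. Shared sequence was counted on GENCODE M21 transcripts, and promoters came from RefSeq (GRCm38.p6). Positions of genes are those of the tables on mm9, counted from 1. Alternatives were the pseudocount, filters, scaling, fewer groups, a replicate block and leaving out each library.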

Additional observations from a re-analysis of the deposited data

How the results depend on the processing

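Between Myod1_control and SunTag the count of 19 called genes fell to 3 in a fit of the 2 groups alone and lay between 0 and 19 when 1 library was left out; it was 20 with a pseudocount of 0.1, 13 with no filter, 19 with median-ratio scaling (17 of them shared), 18 with quantile normalization (14 shared), 23 without genes under 300 bp (19 shared) and 20 with the failed Gstp1 value missing. Fewer libraries or groups leave fewer degrees of freedom. Between Myod1_active and Myod1_control 0 genes were called, except 1 with no filter, Sult4a1, at 0.424 FPKM against 0 and 0 (adjusted p = 0.00711). The median difference of phase II genes there was -0.27 with a pseudocount of 0.1, -0.0165 with no filter, -0.23 with a filter on the mean, -0.0377 with median-ratio scaling, 0 with quantile normalization (24 of 50 above) and -0.22 to -0.16 without single libraries. Between SunTag and WT the count past 1.5-fold upward was 0 with the filter on the mean and 1 to 8 without single libraries, the count downward 1 to 12, and 0 to 1 genes were called; the median there, 0.06, lay between -0.15 and 0.13 without single libraries and turned its sign without SunTag replicate 2 (-0.15) or WT replicate 1 (-0.03). For these medians and counts the cause was not tested. With a replicate block, 0 phase II genes and 15 of all genes were called between SunTag and WT. The labels do not say whether libraries with the same replicate number belong together, and they were not treated as pairs. Their deviations had a correlation of 0.0425 over 15744 genes, which with 2 pairs cannot exclude pairing. The 6 Sult2a genes, Sult3a1 and Cux2 each had the same order of replicates in WT and SunTag. No block was fitted in the other comparisons, since Myod1_active had 1 library and Myod1_control and SunTag came from different experiments. With median-ratio scaling family sums moved, by more than their replicate SD where there was one: Myod1_control, to 504 (UGT1), 221 (UGT3), 138 (SULT), 1385 (GST alpha), 977 (mu), 4209.8 (pi, no SD), 204 (zeta), 75.7 (kappa) and 48.4 (omega) FPKM; Myod1_active, which has no SD, to 391 (UGT1), 752 (UGT2), 154 (UGT3), 132 (SULT), 1311 (GST alpha), 985 (mu), 3771 (pi), 280 (theta), 200.5 (zeta), 90.5 (kappa) and 47.2 (omega); WT, to 628 (SULT), 326 (zeta) and 125 (kappa); SunTag, to 332 (zeta). This follows from the scaling itself, a factor for each library.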
